A study of Homo sapiens with 5 samples.

Results

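The miRNAs miR-15a, miR-15b, miR-16, miR-195 and miR-497 were followed in small RNA libraries of MCF10A, an immortalized human mammary epithelial line that does not form tumours. Members were all human rows of these 5 miRNAs, every arm included, which gave 11 names among 2565 human miRNA names: hsa-miR-15a-5p, hsa-miR-15a-3p, hsa-miR-16-1-3p, hsa-miR-16-5p, hsa-miR-15b-5p, hsa-miR-15b-3p, hsa-miR-16-2-3p, hsa-miR-195-5p, hsa-miR-195-3p, hsa-miR-497-5p and hsa-miR-497-3p. The prefix is left off below. Per the labels, 3 attached libraries came from adherent cultures and 2 detached libraries from cultures over 2% poly-HEMA, a polymer film to which cells cannot adhere. Both groups were grown with donor horse serum, epidermal growth factor, insulin, cholera toxin, hydrocortisone, penicillin and streptomycin. Culture lasted 24 h in both groups according to the series' design text, but the time label reads 0 h for attached and 24 h for detached samples, so the interval before the attached cells were sampled is unclear. Nothing in the labels says that replicates were separate cultures, so the p-values below reflect library-to-library spread that may be technical only. In such bulk RNA, fewer cells of a type and less RNA per cell cannot be told apart.

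The miR-15/16 family is best known for repressing BCL2, an inhibitor of apoptosis, and the cyclins that drive cells from G1 into S phase. A miRNA hairpin yields a 5p and a 3p arm, of which usually one is loaded into Argonaute as the guide and the other, the passenger, is mostly degraded. In this family the 5p arm is the usual guide, and it recognises target mRNAs mainly through its seed, the bases following the first. Epithelial cells that lose their attachment are prone to anoikis, a form of apoptosis in which BCL2 family proteins act.

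The hairpins lie in 3 host loci of the hg38 assembly, annotated with GENCODE release 29. MIR15A (chr13:50049119-50049201) and MIR16-1 (chr13:50048973-50049061), both on the minus strand and 57 bp apart, lie in DLEU2, a long noncoding RNA gene in a region often deleted in chronic lymphocytic leukaemia. MIR15A overlaps an annotated DLEU2 exon and MIR16-1 a DLEU2 intron. MIR15B (chr3:160404588-160404685) and MIR16-2 (chr3:160404745-160404825), on the plus strand and 59 bp apart, lie in an intron of SMC4, which encodes a condensin subunit. MIR195 (chr17:7017615-7017701) and MIR497 (chr17:7017911-7018022), on the minus strand and 209 bp apart, overlap exons of the noncoding host gene MIR497HG. Host transcripts were not analysed here.

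The guide arms are shown because they share 1 seed and differ mainly after it. All 5 carry AGCAGCA at bases 2 to 8, given in capitals, and miR-424-5p from the X chromosome carries it too. miR-503-5p, the neighbour of miR-424, differs from it within the seed. Sequences are mature RNAs from RefSeq (GRCh38.p14), 5′ to 3′, and all 11 names matched.
miR-15a-5p: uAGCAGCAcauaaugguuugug
miR-15b-5p: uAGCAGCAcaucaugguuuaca
miR-16-5p: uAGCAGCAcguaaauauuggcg
miR-195-5p: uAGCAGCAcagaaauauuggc
miR-497-5p: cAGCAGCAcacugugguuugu
miR-424-5p: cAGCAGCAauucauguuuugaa
miR-503-5p: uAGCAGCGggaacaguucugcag

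The 5p arms of miR-15a and miR-15b differed at 4 of 22 bases, and those of miR-16 and miR-195 at 2 of 21. How reads matching several names were counted is not given in the sources used here, so the split between such close sequences is uncertain. The mature miR-16-5p is the same RNA from MIR16-1 and MIR16-2, and its count cannot be parted by locus. The passenger arms, which differ between loci, can be. They are shown because they identify the hairpin, with bases 2 to 8 again in capitals. miR-16-2-3p shares those bases with miR-195-3p, and the other 4 passenger arms have bases 2 to 8 found in no other member.
miR-15a-3p: cAGGCCAUauugugcugccuca
miR-16-1-3p: cCAGUAUUaacugugcugcuga
miR-15b-3p: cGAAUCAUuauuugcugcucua
miR-16-2-3p: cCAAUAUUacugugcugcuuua
miR-195-3p: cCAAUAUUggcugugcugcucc

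Human miRNA counts were between 8805009 and 15793173 per library, and 3 counts, taken as the floor of detection, correspond to at most 0.341 CPM before scaling. Levels are CPM, counts per 1000000 human miRNA counts after scaling with TMM factors, which align the bulk of miRNAs between libraries. Attached replicate 2 stood apart from the other libraries. Its Spearman correlations with them over 697 tested names were 0.812 to 0.857, against 0.927 to 0.961 among the other 4, and log2 fold changes are therefore given with and without it. The epithelial miRNAs miR-200c-3p, miR-200b-3p, miR-141-3p and miR-205-5p summed to 54650 to 98269 CPM in attached and 84771 to 94145 CPM in detached libraries. Most of each sum was miR-205-5p and miR-141-3p. miR-200b-3p measured 153 to 687 CPM, and miR-200c-3p 2333 CPM in attached replicate 2 against 10689 to 18418 CPM elsewhere. Of the 4 names 3 had a positive log2 fold change and edgeR called 0. miR-141-3p was lower in both detached libraries (12953 and 13875 CPM) than in every attached one (16477 to 29346 CPM), beside 14.2% of all tested names. Blood miRNAs (6 names) summed to 7.59 to 16.2 and 17.3 to 21.8 CPM, and mesenchymal miRNAs (4 names) to 3.31 to 15.6 and 14.0 to 57.8 CPM. Muscle miRNAs (3 names) summed to at most 11.7 CPM with the name miR-133a-3p at 0 in every library. That 0 does not show that the RNA was absent. The endothelial miR-126-3p measured 6.68 to 33.1 CPM in attached and 21.3 to 25.4 CPM in detached libraries. The blood sum was higher in both detached libraries than in every attached one. Among the 3 tested blood names, miR-451a was higher in both (6.94 and 7.76 against at most 4.44 CPM), beside 14.9% of all tested names. miR-486-5p and miR-142-3p overlapped between groups, with log2 fold changes of -0.11 and 0.37. The mesenchymal sum was higher in both detached libraries than in attached replicates 1 and 3 only. Within it, miR-145-5p measured 0.958, 0.911 and 0.340 CPM across attached replicates, then 17.0 and 6.16 CPM once detached (log2 fold change 3.98, SE 0.78, edgeR adjusted p 0.146). With attached replicate 2 left out, edgeR called both tested mesenchymal names higher, beside 3.24% of all names. These were miR-145-5p (4.15, edgeR adjusted p 0.00273) and miR-143-3p (3.12, edgeR adjusted p 0.0225). miR-143-3p measured 3.31, 14.1 and 2.12 CPM across attached replicates, against 39.7 and 7.38 CPM across detached replicates, so its groups overlapped through attached replicate 2. The part of these markers in the results below was not tested.

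The 11 names together measured 10626, 820 and 7739 CPM in attached replicates 1, 2 and 3, and 11504 and 17784 CPM in detached replicates 1 and 2. Both detached libraries were above every attached one, and the group means were 6395 ± 5040 CPM (SD, n = 3) and 14644 ± 4440 CPM (SD, n = 2). Without attached replicate 2 the attached mean was 9183 CPM. Most of this was in the 5p arms of miR-16, miR-15b and miR-15a. By mean CPM over the 5 libraries, the order was miR-16-5p (4344 CPM, rank 32 of 2565 names), miR-15b-5p (3031 CPM, rank 40) and miR-15a-5p (2047 CPM, rank 49). A second tier followed with miR-16-2-3p at 89.6 CPM, miR-195-5p at 76.3, miR-15b-3p at 51.1, miR-497-5p at 27.4, miR-16-1-3p at 15.2 and miR-15a-3p at 11.5 CPM. miR-497-3p was at 1.69 CPM and miR-195-3p at 0.184 CPM, the latter with 12 counts in all libraries together. The lengths of these RNAs, 21 or 22 bases, are nearly equal. Neighbours in this order overlapped in their range over libraries, except at 3 steps. The lowest miR-15a-5p value (149 CPM, attached replicate 2) only just cleared the highest of miR-16-2-3p (149 CPM, attached replicate 1), and miR-497-3p and miR-195-3p each lay wholly below the name before.

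**Figure D1:**
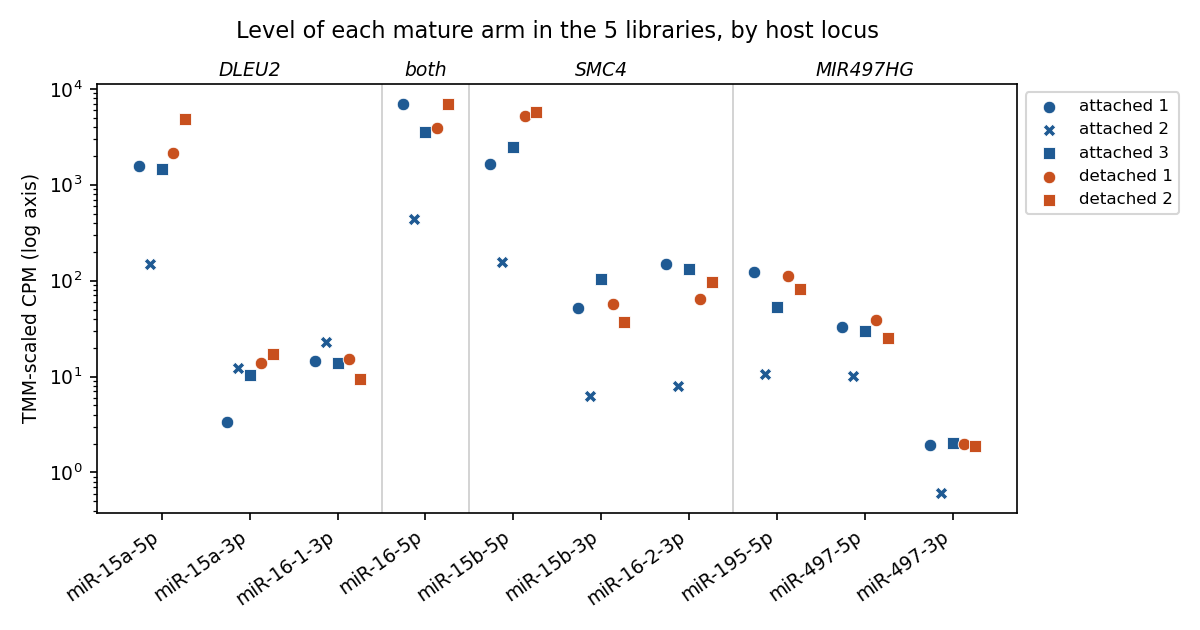
TMM-scaled CPM on a log axis (y) for the 10 names that passed the low-count filter (x), grouped by host locus, with 1 point per library; miR-195-3p, at 12 counts in all, is not drawn. miR-15b-5p and miR-15a-5p are higher in both detached libraries than in any attached library, and attached replicate 2 (cross) is the lowest library for 8 of the 10 names.

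Summed by host locus, the 3 names made only from SMC4 held 1859, 172 and 2683 CPM across attached replicates, against 5271 and 5876 CPM across detached replicates. The 3 made only from DLEU2 held 1591, 184 and 1467 CPM, then 2196 and 4929 CPM, and the 4 from MIR497HG held 159, 21.2 and 85.1 CPM, then 154 and 109 CPM. The SMC4 and DLEU2 sums separated the groups and consisted mostly of miR-15b-5p and miR-15a-5p, while the MIR497HG sums overlapped.

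miR-15b-5p, the guide arm made from SMC4, had the largest log2 fold change of the 10 tested members with all 5 libraries. miR-15a-5p exceeded it without attached replicate 1 (2.15 against 2.07) and without detached replicate 1 (2.25 against 2.05). miR-15b-5p measured 1659, 158 and 2447 CPM across attached replicates (19044, 1040 and 28800 counts), against 5149 and 5743 CPM across detached replicates (80862 and 75480 counts). The detached libraries lay close together and above every attached library, with means of 5446 ± 420 CPM (SD, n = 2) and 1421 ± 1163 CPM (SD, n = 3), a ratio of 3.83. Without attached replicate 2 the ratio of means was 2.65. The log2 fold change was 1.94 (SE 0.94), which did not pass edgeR's quasi-likelihood test over all 697 names (adjusted p 0.699). Without attached replicate 2 it was 1.40 (SE 0.47), with an unadjusted edgeR p of 0.00891 and an adjusted p of 0.129.

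miR-15b-3p, the passenger arm of the same hairpin, measured 51.6, 6.22 and 103 CPM across attached replicates, against 57.4 and 37.0 CPM across detached replicates, and the detached values lay within the attached range. Its log2 fold change was -0.19 (SE 1.01), and -0.71 (SE 0.54) without attached replicate 2, with edgeR adjusted p of 0.977 and 0.696. miR-16-2-3p, from the adjoining SMC4 hairpin, measured 149, 7.89 and 132 CPM across attached replicates, against 64.1 and 95.8 CPM across detached replicates. Here the groups overlapped only through attached replicate 2, and both detached libraries were below attached replicates 1 and 3. The log2 fold change was -0.27 (SE 1.05), and -0.82 (SE 0.50) without attached replicate 2 (edgeR adjusted p 0.962 and 0.570). Signs for both SMC4 passenger arms turned positive in several other fits, listed with the other settings.

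From DLEU2, miR-15a-5p measured 1573, 149 and 1442 CPM across attached replicates, against 2167 and 4903 CPM across detached replicates. Both detached libraries were again above all attached ones, but they differed from each other more than those of miR-15b-5p did. The log2 fold change was 1.74 (SE 0.92, edgeR adjusted p 0.707), and 1.22 (SE 0.50) without attached replicate 2, with an unadjusted edgeR p of 0.0276 and an adjusted p of 0.254. Its passenger miR-15a-3p, with 39 to 228 counts per library, measured 3.40, 12.1 and 10.5 CPM across attached replicates, against 13.9 and 17.3 CPM across detached replicates. The groups were separated here too, by a small margin over attached replicate 2 (log2 fold change 0.86, SE 0.70, and 1.17, SE 0.57, without it, edgeR adjusted p 0.798 and 0.390). miR-16-1-3p, the passenger of the neighbouring hairpin, measured 14.4, 22.9 and 13.8 CPM across attached replicates, against 15.4 and 9.51 CPM across detached replicates, with overlapping groups (log2 fold change -0.45, SE 0.63, and -0.17, SE 0.50, without attached replicate 2, edgeR adjusted p 0.884 and 0.940).

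miR-16-5p, the guide made from both DLEU2 and SMC4, was the most abundant member, and its groups overlapped. It measured 7018, 443 and 3505 CPM across attached replicates, against 3884 and 6869 CPM across detached replicates, so attached replicate 1 exceeded both detached libraries. The log2 fold change was 0.56 (SE 0.95, edgeR adjusted p 0.891) with all 5 libraries and 0.025 (SE 0.50, adjusted p 0.992) without attached replicate 2. The overlap rested on attached replicate 1, the highest library for this name. Without that library both detached values lay above the other 2 attached ones, by 3884 against 3505 CPM at the closest. Leaving out the highest attached library favours such a separation for any name, and its share over all tested names was not counted. The log2 fold change without attached replicate 1 was 1.44 (SE 0.95, edgeR adjusted p 0.651).

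The MIR497HG arms were scarce. miR-195-5p measured 124, 10.6 and 53.0 CPM across attached replicates, against 113 and 81.3 CPM across detached replicates. miR-497-5p measured 32.7, 10.0 and 29.9 CPM across attached replicates, against 38.9 and 25.3 CPM across detached replicates. The groups overlapped for both, and without attached replicate 2 the log2 fold changes were close to 0, at 0.13 (SE 0.54) and 0.036 (SE 0.50), against 0.63 (SE 0.93) and 0.40 (SE 0.72) with all libraries (edgeR adjusted p 0.884 and 0.891 with all). For miR-195-5p the overlap rested on attached replicate 1, again the highest library. Without it both detached values lay above the other 2 attached ones. Leaving out the highest library favours such a split, which was not counted over all tested names. The log2 fold change of miR-195-5p was then 1.61 (SE 0.93, edgeR adjusted p 0.602). miR-497-3p, with 4 to 31 counts per library, gave 0.32 (SE 0.69) and -0.031 (SE 0.51) without attached replicate 2. miR-195-3p had 3, 0 and 1 counts in the attached libraries and 3 and 5 in the detached ones and did not pass the low-count filter. A count of 0 among the human miRNA counts of attached replicate 2 allows up to 0.341 CPM before TMM scaling, so no difference was detectable at this depth.

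Of the 10 tested members 7 had a positive log2 fold change and 3 a negative one (median 0.48), beside a median of -0.039 over all 697 tested names. None of these 10 signs flipped with library totals, RLE or upper-quartile factors in place of TMM. All 5 guide arms were positive (median 0.63), as were 2 of 5 passenger arms (median -0.19). Among all tested names 48.8% were positive. Without attached replicate 2 the members' median was 0.030, beside -0.058 over all 679 tested names, of which 47% were positive, and 6 of 10 members were positive. edgeR called 0 members in either direction with all 5 libraries, where 0% of all names were called higher and 0% lower. At unadjusted p under 0.05, edgeR counted 0 members, beside 4.73% of all names higher and 2.3% lower. Without attached replicate 2, edgeR called 0 members at adjusted p under 0.05, beside 3.24% of all names higher and 0.147% lower. At unadjusted p under 0.05 that fit counted 2 members higher, miR-15a-5p and miR-15b-5p, beside 9.57% of all names, and 0 members lower, beside 3.53%. Groups did not overlap, with detached higher, for 3 of 10 members, against 14.9% of all tested names. They did not overlap with detached lower for 0 members, against 14.2%. Leaving out attached replicate 2, these were 3 of 10 members against 20.4%, and 1 of 10, miR-16-2-3p, against 21.5%. DESeq2, on the 1918 names with any count, called 0 members, where it called 0.626% of names higher and 0% lower. At unadjusted p under 0.05 it counted miR-15b-5p (0.0477) higher, beside 2.14% of names, and 0 members lower, beside 1.93%. DESeq2 without attached replicate 2, added after seeing the data, also called 0 members, beside 1.33% of names higher and 0.267% lower, with adjusted p 0.0693 for miR-15b-5p. At unadjusted p under 0.05 it counted miR-15b-5p and miR-15a-5p higher, beside 3.15% of names, and 0 members lower, beside 1.07%. In the authors' deposited table the log2 fold changes of miR-15b-5p and miR-15a-5p were 1.52 and 1.33, and that of miR-16-5p was 0.33, each with an adjusted p of 0.998. How these were estimated is not given in the sources used here, so they may not be the same measure as the fits above. The deposited group means lay further apart than these fold changes, with 16971.2 in attached and 58832.5 in detached libraries for miR-15b-5p.

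**Figure D2:**
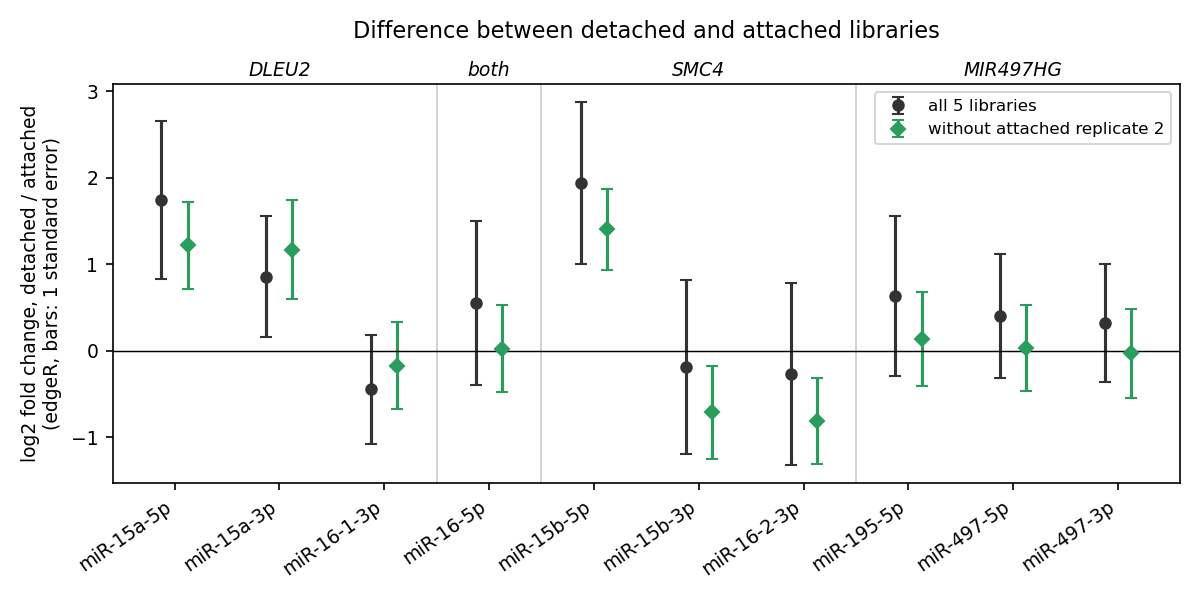
edgeR log2 fold changes, detached over attached (y), for the 10 tested names (x) by host locus, with bars of 1 standard error, from all 5 libraries (circles) and without attached replicate 2 (diamonds). miR-15b-5p and miR-15a-5p lie highest with all libraries, at 1.94 and 1.74, and the MIR497HG arms and miR-16-5p move close to 0 without attached replicate 2.

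Because the members share libraries, their ratios within a library do not depend on scaling. The make-up of the family differed between libraries. miR-16-5p held 66.0% of the members' counts in attached replicate 1 (95% Wilson interval 65.8 to 66.3%), 54.0% in attached replicate 2 (52.7 to 55.3%) and 45.3% in attached replicate 3 (45.0 to 45.6%), against 33.8% (33.5 to 34.0%) and 38.6% (38.4 to 38.8%) in the detached libraries. miR-15b-5p held 15.6% (15.4 to 15.8%), 19.3% (18.2 to 20.3%) and 31.6% (31.3 to 31.9%) in attached and 44.8% (44.5 to 45.0%) and 32.3% (32.1 to 32.5%) in detached libraries. Only counting error enters these intervals, and without molecular identifiers reads are not independent molecules.

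**Figure D3:**
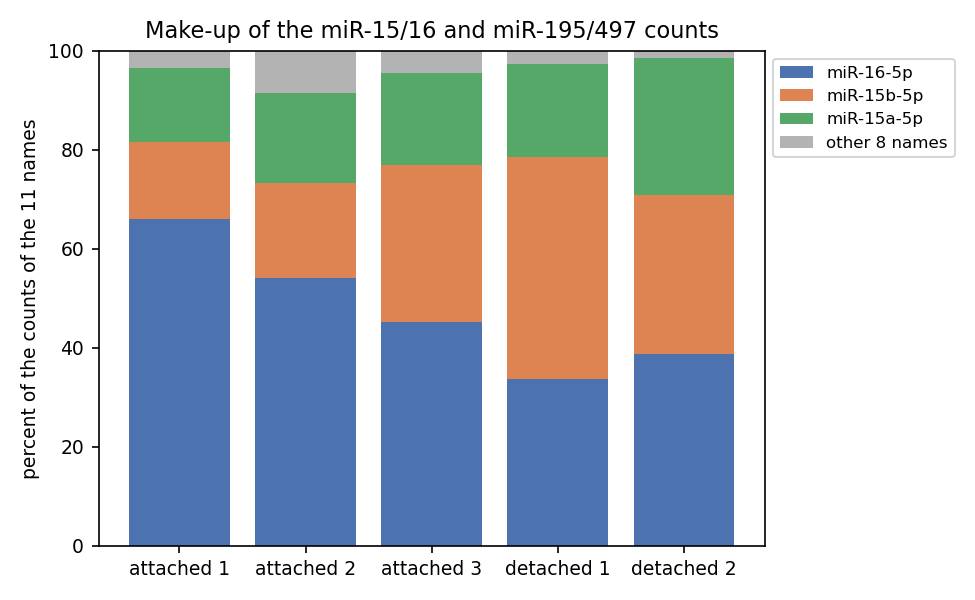
Percent of the counts of the 11 names (y, bars from 0) held by miR-16-5p, miR-15b-5p, miR-15a-5p and the other 8 names in each library (x). The miR-16-5p part is 33.8% and 38.6% in the detached libraries and between 45.3% and 66.0% in the attached ones.

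miR-16-5p counts per count of miR-15a-5p and miR-15b-5p together were 2.17, 1.44 and 0.901 in the attached libraries and 0.531 and 0.645 in the detached ones. Every detached ratio was below every attached one, by a mean of -1.27 on the log2 scale, and by -1.26 without attached replicate 2. An exact permutation test over libraries (two-sided) gave p = 0.2, the smallest that 3 against 2 libraries can give, so no ratio could pass 0.05; adjusted over the 5 ratios tested it was 0.5.

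The arms of miR-15b showed the other ratio that separated the groups. Counts of miR-15b-5p per count of miR-15b-3p were 32.2, 25.4 and 23.7 in the attached libraries and 89.7 and 155 in the detached ones. The 3 attached libraries, attached replicate 2 included, lay close together, and the detached ones were higher by 2.14 on the log2 scale (exact permutation p = 0.2, adjusted p 0.5). Leaving out any single library gave 1.75 to 2.54. Among 178 miRNAs with both arms tested, 14% had a 5p to 3p ratio that was higher in both detached libraries than in all attached ones, and 21.3% had one without attached replicate 2. The miR-15b difference ranked 6 of 178 from the highest, where the median difference was -0.11.

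The remaining 3 ratios did not separate the groups. miR-15a-5p per miR-15a-3p ranged from 12.3 in attached replicate 2 to 463 in attached replicate 1, with 155 and 283 in the detached libraries, a difference of 1.19 that became -0.26 without attached replicate 2 (exact permutation p = 0.8). miR-15a-5p per miR-15b-5p, which sets DLEU2 against SMC4, was 0.948, 0.943 and 0.589 in the attached libraries and 0.421 and 0.854 in the detached ones (log2 difference -0.43, exact permutation p = 0.4). The groups overlapped, with both detached libraries inside or below the attached range. miR-195-5p per miR-497-5p, hairpins of the same host, was 3.78, 1.06 and 1.77 in the attached libraries and 2.90 and 3.22 in the detached ones (log2 difference 0.67, exact permutation p = 0.6). Adjusted over the 5 ratios these p were 0.667 to 0.8.

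**Figure D4:**
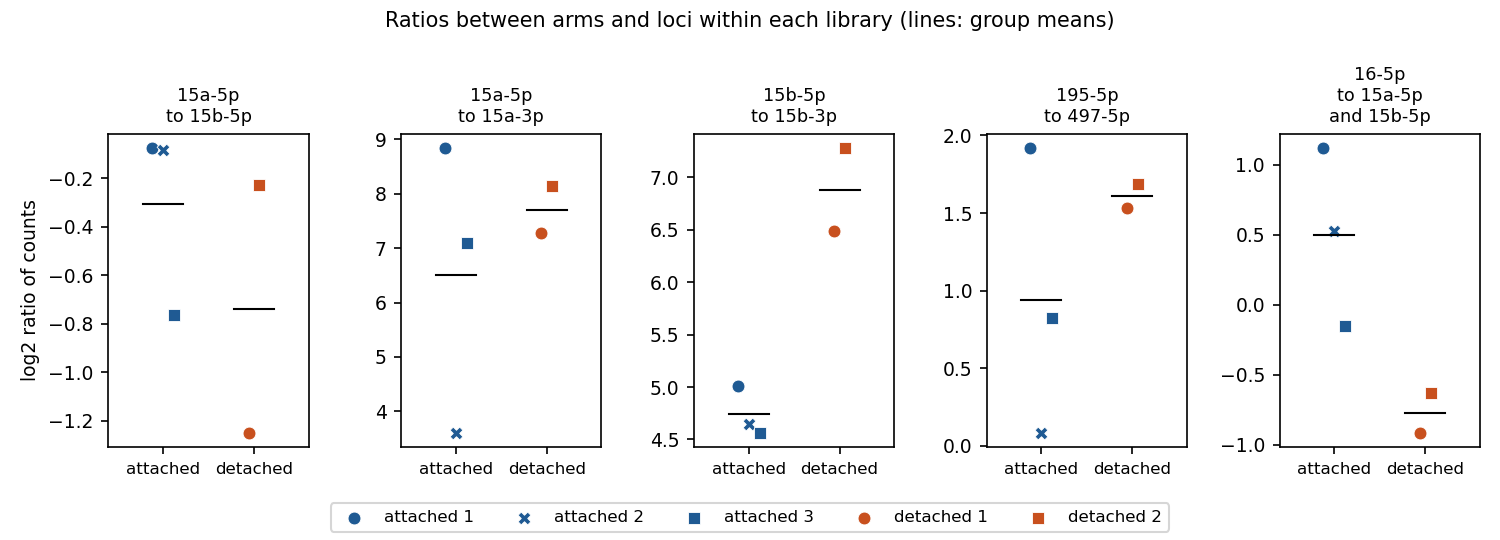
log2 ratios of counts within each library (y) for the 5 ratios tested (panels), attached and detached libraries side by side (x), with a line at each group mean; the y axes differ. Only miR-15b-5p to miR-15b-3p and miR-16-5p to miR-15a-5p and miR-15b-5p keep the detached libraries apart from all attached ones.

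The passenger arms of miR-16 set the DLEU2 and SMC4 hairpins of this miRNA side by side. miR-16-2-3p per miR-16-1-3p was 10.3, 0.344 and 9.57 in the attached libraries and 4.16 and 10.1 in the detached ones, and miR-15b-3p per miR-15a-3p was 15.2, 0.512 and 9.89, and 4.11 and 2.13. SMC4 passengers outnumbered those of DLEU2 in 4 of the 5 libraries, attached replicate 2 being the exception. miR-195-5p, which differs from miR-16-5p at 2 bases, had 0.0118 to 0.0290 counts per miR-16-5p count. These 3 ratios were added after seeing the data and were not tested.

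Attached replicate 2 was the lowest of the 5 libraries for 8 of the 10 tested members, against 41.3% of all 697 tested names. Relative to the median of the other 4 libraries, as log2 of CPM plus 1, it was at -4.48 for miR-15b-5p, -3.67 for miR-16-2-3p, -3.62 for miR-15a-5p, -3.54 for miR-16-5p, -3.06 for miR-195-5p and -2.94 for miR-15b-3p. The 5th percentile of all tested names was -2.96. miR-497-5p was at -1.55 and miR-497-3p at -0.87. Both DLEU2 passengers behaved otherwise, with 0.0063 for miR-15a-3p and 0.67 for miR-16-1-3p. GC content was 36.4% to 45.5% in the first 6 of these members and 45.5% and 54.5% in the DLEU2 passengers. It was 52.4% in miR-497-5p and 45.5% in miR-497-3p. Over the 603 tested names with a RefSeq sequence, the median was -0.38 at 50% GC or less and -0.12 above it. Across these names the Pearson correlation between GC content and the value was 0.13. Over the 151 names of at least 100 CPM it was 0.067, and genes are not independent replicates. The part of base composition in this library's values was not tested.

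**Figure D5:**
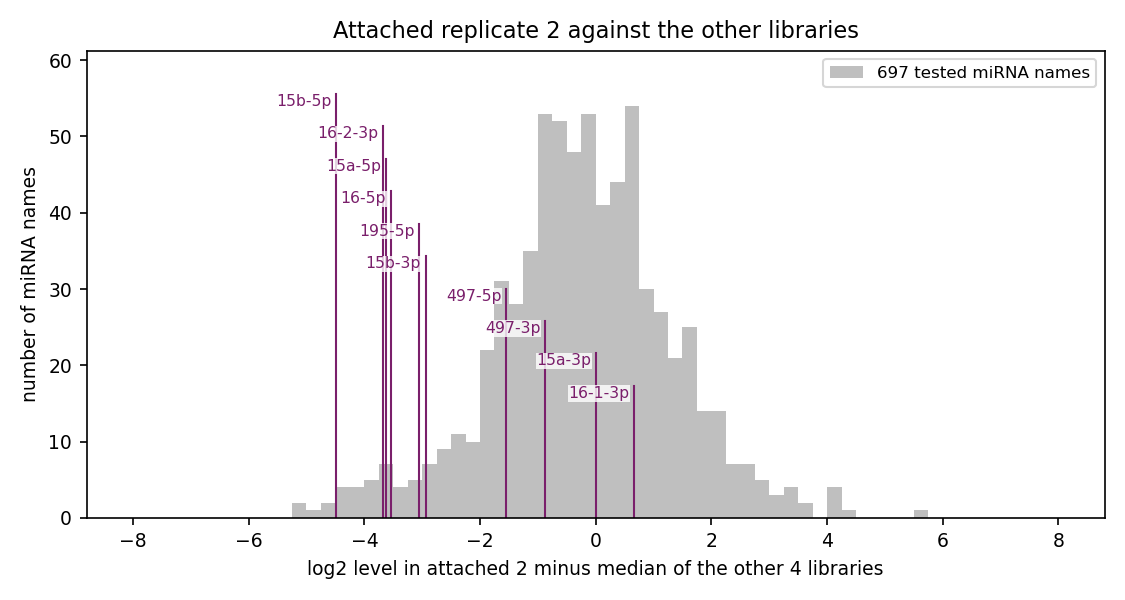
Number of tested miRNA names (y) by the log2 level in attached replicate 2 minus the median of the other 4 libraries (x, log2 of CPM plus 1), with a line for each of the 10 tested members. The abundant guide arms, miR-195-5p and the SMC4 passengers lie in the low tail, between -4.48 and -2.94, while miR-15a-3p and miR-16-1-3p lie at 0.0063 and 0.67.

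The other names of the seed family were compared next. miR-424-5p, which carries the same seed and is made from an X-linked cluster, measured 1567, 113 and 1084 CPM across attached replicates, against 976 and 1320 CPM across detached replicates (log2 fold change 0.32, SE 0.94, and -0.21, SE 0.48, without attached replicate 2). miR-503-5p measured 275, 158 and 124 CPM across attached replicates, against 115 and 153 CPM across detached replicates (-0.47, SE 0.65, and -0.58, SE 0.53, without attached replicate 2). Neither separated the groups. miR-6838-5p, also with the seed AGCAGCA, had 6 counts in all libraries together. Names with this seed, 7 in all, summed to 11974, 883 and 8561 CPM across attached replicates, against 12327 and 18942 CPM across detached replicates. Among 5 arms of these relatives 3 were tested and edgeR called 0, beside 0% of all names. At unadjusted edgeR p under 0.05 there were 0, beside 4.73% of all names higher and 2.3% lower.

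Of 12 other miRNAs described as restraining G1 cyclins and their kinases, 11 were tested, with 4 positive and 7 negative and a median log2 fold change of -0.14. Over all tested names 48.8% were positive and the median was -0.039. Leaving out attached replicate 2, 5 of 11 were positive and the median was -0.0029, beside 47% and -0.058 over all names. With all libraries edgeR called 0 of them, beside 0% of all names. At unadjusted p under 0.05 it counted 0, beside 4.73% of all names higher and 2.3% lower. The name miR-103a-3p had 0 counts in every library, which does not show that the RNA was absent. The counting of reads that match several names is not given in the sources used here. The 3 with the smallest p were miR-107, miR-34b-5p and let-7i-5p. miR-107, a repressor of CDK6, measured 130, 6.68 and 99.9 CPM across attached replicates, against 172 and 284 CPM across detached replicates (log2 fold change 1.53, SE 1.03, edgeR adjusted p 0.765). Its log2 fold change was 0.98 (SE 0.51) without attached replicate 2. miR-34b-5p, of the p53-induced miR-34 family, measured 65.7, 12.7 and 53.5 CPM across attached replicates, against 103 and 81.5 CPM across detached replicates (1.06, SE 0.78, adjusted p 0.770, and 0.63, SE 0.50, without attached replicate 2). let-7i-5p, of a family that represses cyclins and RAS, gave -0.77 (SE 0.63, adjusted p 0.795), and -0.30 (SE 0.48) without attached replicate 2.

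Similarity of profile was measured as the root mean square difference between profiles of log2 of CPM plus 1 over the 5 libraries, each centred on its own mean, among names with a mean of at least 100 CPM. Closest to miR-15a-5p were miR-107 (0.27), miR-331-3p (0.38) and the shared miR-365a-3p and miR-365b-3p name (0.44), with miR-15b-5p at rank 4 (0.46), against a median of 1.72 over 170 names. Closest to miR-15b-5p were miR-20a-5p and the miR-365 name (0.36 each) and miR-107 (0.41). miR-424-5p was the nearest name to miR-16-5p (0.23) and to miR-16-2-3p (0.31), and miR-16-5p ranked 2 for miR-16-2-3p (0.48). miR-195-5p lay nearest to miR-96-5p and miR-200c-3p (0.29 and 0.30), and miR-497-5p to miR-19a-3p (0.13). The DLEU2 passengers had other neighbours, miR-151a-3p for miR-16-1-3p (0.09) and miR-191-5p for miR-15a-3p (0.29). All these profiles include attached replicate 2, and no distance was computed without it.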

How the data were processed

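Raw counts per named small RNA were deposited by the authors for each library. Per the submitters' processing notes, the build was hg38 and DESeq2 was used, with no role or version; no aligner or counter is given in the sources used here. Per the labels, RNAs of 18 to 24 nt were selected from 50 µg of total RNA. The 5 summary rows of each table total 0. The authors' deposited comparison table holds, per the file header, log2 fold changes, p-values, a test score and counts divided by size factors (signal); 100% of these gave whole reads within 0.01, and edgeR on them called 0 names higher and 0 lower.

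For human miRNA rows, edgeR 4.0.16 (R 4.3.3) gave the tests (quasi-likelihood F test with TMM factors, two-sided, Benjamini-Hochberg, call at adjusted p under 0.05) after filterByExpr (minimum count 10, minimum total 15). Standard errors are the absolute log2 fold change over the square root of F. Ratios used 0.5 added counts and exact permutation (scipy 1.17.1). No 2 replicates agreed within sampling noise (chi-square of 788 to 4784 per degree of freedom). The code was tested on simulated counts. Alternatives were DESeq2 1.42.0, limma-voom 3.58.1, other scalings, filters and rows, a replicate block and leaving out each library. The members and lists were chosen with earlier results of these data known. Named miRNAs were all members, family relatives, cell type markers, the 3 smallest p of the G1 list, and nearest profiles. The 3 nearest profiles were found for each tested member, and only part of them are named.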

Additional observations from a re-analysis of the deposited data

How the results depend on the processing

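Members were called in 0 of the alternatives tried, and the guide arms of miR-15a, miR-15b, miR-16, miR-195 and miR-497 kept positive log2 fold changes in every fit that gave one, with 1.40 to 3.41 for miR-15b-5p and 1.06 to 2.75 for miR-15a-5p. Calls over all names were 0 higher and 0 lower with all 5 libraries, but 12 higher with DESeq2 and 14 higher and 5 lower without the low-count filter. Leaving out single libraries gave 0 to 22 higher and 0 to 1 lower, where 22 and 1 came without attached replicate 2, and DESeq2 without that library, added after seeing the data, gave 25 and 5. Attached replicate 2 deviated most in these data, so leaving it out narrows the attached spread by selection. miR-15b-3p turned to 0.52 with limma-voom and ran from -0.71 to 0.70 on leaving out single libraries (0.70 without attached replicate 3, 0.12 without detached replicate 2). miR-16-2-3p turned to 0.51 with limma-voom and ran from -0.82 to 0.19 (0.19, 0.025 and 0.031 without attached replicates 1 and 3 and detached replicate 1). miR-497-3p ran from -0.031 (without attached replicate 2) to 0.55. The log2 difference of miR-15a-5p to miR-15b-5p ran from -0.94 to 0.079 (without detached replicate 1), and that of miR-15a-5p to miR-15a-3p from -0.26 (without attached replicate 2) to 2.35. On leaving out single libraries miR-16-5p ran from 0.025 to 1.44, miR-195-5p from 0.13 to 1.61, miR-497-5p from 0.036 to 0.72, miR-15a-3p from 0.46 to 1.17 and miR-16-1-3p from -0.78 to -0.065. The cause was not tested. Without a detached replicate, the lone one is assumed to vary like the attached libraries. Scaling by library totals moved the median log2 fold change of all names from -0.039 to 0.20, with miR-15b-5p then at 2.04.

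Replicate numbers are shared for 1 and 2 only and the labels do not tie them to a culture. Deviations of same-numbered libraries from their group means correlated at -0.26 and -0.23 across 697 names. The 2 detached libraries deviate from their mean by equal and opposite amounts. Pairs of unlike number therefore gave 0.26 and 0.23, and these values cannot decide whether replicate numbers mark a shared culture. With a replicate block, in which attached replicate 3 carries no information on the difference, 0 names were called (36 higher and 5 lower at unadjusted edgeR p under 0.05), and miR-15b-5p gave 3.41, miR-15b-3p 1.35 and miR-16-2-3p 1.17.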
